A study of Rattus norvegicus with 12 samples.

Results

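Extracellular vesicles were compared with the total secretome in primary cortical neuroglial cultures of the rat, a mixed culture of neurons and glia. The members were the 3 libraries of cultures that received extracellular vesicles at 10 µg/mL (EV) and the 3 libraries of cultures that received the total secretome at 45 µg/mL, 6 of the 12 libraries of the series, taken by their treatment labels. The cultures came from newborn Wistar pups (P0 in the labels) and were treated at day 10 in vitro, and total RNA was collected 4 h after the addition. The other 6 libraries are 3 of intact cultures without addition (intact control, IC) and 3 of cultures given 3–100 kDa proteins at 15 µg/mL. The vesicles were pelleted by ultracentrifugation from medium conditioned by human glial progenitor cells, which had been differentiated from induced pluripotent stem cells. How the total secretome was prepared is not given in the sources used here, and the 2 preparations were added at different doses, so that preparation and dose cannot be told apart. The labels number the libraries 1 to 3 within each group without saying that they came from separate cultures, so that p-values measure the spread between these libraries.

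The secretome of a cell comprises what it releases into its medium, soluble proteins as well as vesicles, and extracellular vesicles are its membrane-bound fraction, which carries proteins, lipids and RNA. Within hours of a growth factor or depolarising stimulus, neurons and glia transcribe immediate early genes of the AP-1, Egr and Nr4a families, followed by secreted neuropeptides and growth factors such as Vgf and Bdnf and by dual-specificity phosphatases and Sprouty proteins, which damp the ERK kinases that drive the response. Cytokines of the interleukin-6 family act through the shared receptor gp130 and the factor STAT3, a route well known in reactive astrocytes.

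The values are TPM, transcript abundances scaled to a fixed sum per library, a unit already divided by transcript length, and each library summed to 1000000. TPM keeps no read number, so the depth of each library is unknown. Between 14890 and 15392 rows were above 0 in a library of the series. Rps6, a ribosomal protein gene that every cell uses, had the value 0 throughout the series, so that a 0 may be a failed estimate, and genes at 0 throughout a group are given per library without a fold. Principal components of the 500 most variable genes put 27.6% of the variance of the 6 libraries on the first component and 24.1% on the second. Of these 500 genes, 59 were small RNA, against 80 of the 12754 genes tested below. On the first component EV replicate 1 stood apart at −23.1, beside −1.13 and 3.54 for the other EV libraries and −8.84, 11.7 and 17.8 for the secretome libraries, so that the groups overlapped there. On the second, the values were 13.6, 5.47 and 9.93 after the secretome against 4.46, −21.6 and −11.9 after EV, without overlap. Summed neuron markers lay between 4180 and 4580 TPM after EV and between 3500 and 4360 TPM after the secretome (exact permutation test, two-sided, p = 0.3), and astrocyte markers between 1450 and 1890 against 1600 and 1960 TPM (p = 0.6). Oligodendrocyte lineage markers summed to between 242 and 291 TPM after EV and between 290.0 and 356 TPM after the secretome (exact p = 0.3), ranges that met at their ends. The 12 microglia markers summed to at most 3.12 TPM in any of the 6 libraries, with C1qc and Trem2 at 0, and the 9 endothelial markers to at most 1.06 TPM, with Emcn at 0. In such bulk RNA, fewer cells of a type and less RNA per cell cannot be told apart.

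The total secretome and EV left these cultures with different levels of a small set of genes. Among those with a symbol, the neuropeptide precursors Vgf and Scg2, the immediate early factors Fosb and Egr2 and the phosphatases Dusp4 and Dusp14 were higher after the secretome, and 10 of the 24 genes called were small RNA or unnamed loci. Of 12754 genes tested (1 TPM or more in 3 or more of these libraries), 24, or 0.188%, passed an FDR of 0.05 in limma. Of these, 18 (0.141%) were higher after the secretome and 6 (0.047%) higher after EV. In all 24 the groups were separated without overlap, a separation that 753 genes (5.9%) showed with the secretome higher and 746 (5.85%) with EV higher. With an unadjusted p below 0.05 and a fold over 1.5, here called the nominal criterion, 508 genes (3.98%) passed. Among them, 326 (2.56%) were higher after the secretome and 182 (1.43%) higher after EV. By the unadjusted limma p alone, 983 genes were under 0.05. Neither count is corrected for the number of genes tested. All differences are given as EV minus secretome on the log2(TPM + 1) scale, on which the differences of low genes come out too small, and a negative value means a higher level after the secretome. Among these genes, 12 of the 24, Fosb included, and 33 of the 508 were below 1 TPM in every library of the lower group. They entered the test through the other group alone. With the replicate number as a block, 20 genes passed the FDR (0.157%), 17 of them among the 24, and 622 the nominal criterion, 389 (3.05%) higher after the secretome and 233 (1.83%) higher after EV. Leaving out EV replicate 1, 2 or 3 gave 55, 8 and 12 genes at this FDR, leaving out secretome replicate 1 gave 13, of which 9 were higher after EV and 4 higher after the secretome, and leaving out secretome replicate 2 or 3 gave 0, with 475 and 574 genes at an unadjusted limma p under 0.05. By the nominal criterion, leaving out EV replicate 1 gave 886 genes, 489 higher after EV and 397 higher after the secretome. These 2 omissions turned the split between the directions, the one at the FDR and the other by the nominal criterion.

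**Figure D1:**
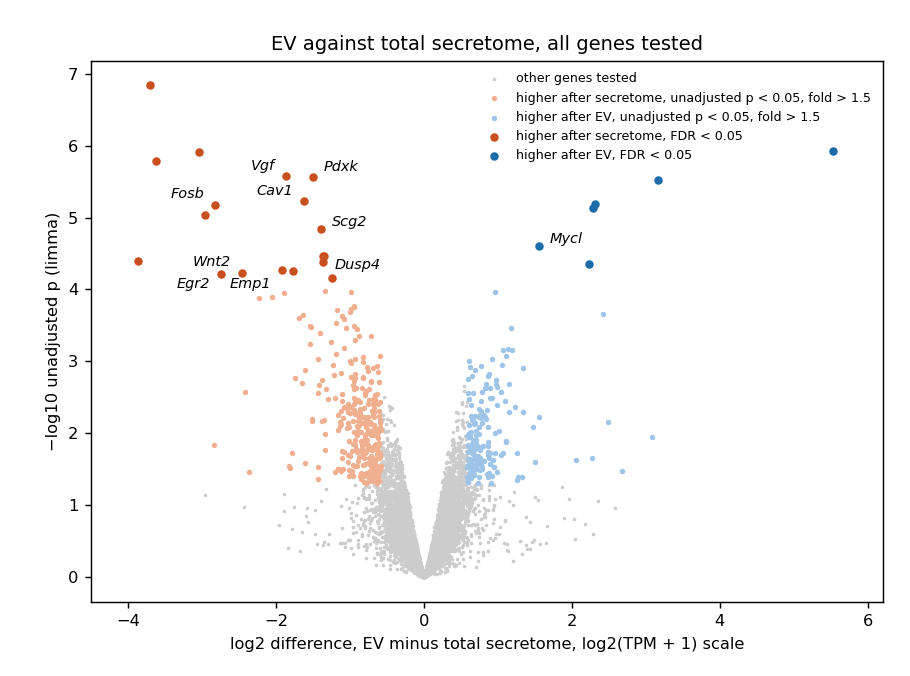
Each point is 1 of the 12754 genes tested, with the log2 difference EV minus total secretome on the horizontal axis and the negative log10 of the unadjusted limma p on the vertical axis. Dark points mark the 24 genes at an FDR under 0.05, of which 18 lie on the secretome side (left) and 6 on the EV side (right), and pale points the other genes past an unadjusted p of 0.05 and a fold of 1.5.

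Neuronal activity-regulated genes were the list furthest towards the secretome. Of its 17 tested members (of 18 listed), 11 were higher after the secretome by the nominal criterion, 64.7% against 2.56% of all genes, and 1, Crh, was higher after EV. The median difference of the list was −0.93, beside 0.0025 over all genes tested. Vgf, the precursor of secreted neuropeptides, is listed in the files as LOC100909521. It stood at 202, 177 and 154 TPM in secretome replicates 1 to 3, at 54.5, 42.0 and 49.0 TPM after EV and at 10.5, 10.2 and 11 TPM in IC. Every secretome library was above every EV library, and every EV library above every IC library, with a log2 difference EV minus secretome of −1.86 (standard error 0.15, limma adjusted p = 0.00554). Scg2, which encodes secretogranin II of dense-core vesicles, was at 138, 119 and 139.9 TPM after the secretome, 52.5, 46.7 and 51.4 TPM after EV and 55.6, 37.2 and 46.1 TPM in IC. The EV values lay within the range of IC, and all secretome values above it, with a log2 difference of −1.39 (standard error 0.14, limma adjusted p = 0.0143). Against IC, in separate fits that share the IC libraries, Vgf differed by 3.96 after the secretome (limma adjusted p = 3.14e-05) and by 2.08 after EV (adjusted p = 0.0155). Scg2 differed from IC by 1.52 after the secretome (limma adjusted p = 0.00737) and by 0.12 after EV (adjusted p = 1). Of all genes, 255 of 12790 (1.99%) passed the FDR between the secretome and IC and 18 of 12754 (0.141%) between EV and IC.

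The promoters of Vgf and Scg2, the neuropeptide precursors that passed the FDR, are shown because each holds a cyclic AMP response element (CRE), TGACGTCA, the site bound by CREB. The 250 bases before the start site are given 5′ to 3′ on the strand of the gene, from RefSeq on the GRCr8 build, with motif matches in capitals. For Vgf, chr12:25277021-25277270 (minus strand), these are the CRE at position −90 from the start and the Egr motif GCGNGGGCG at −26. For Scg2, chr9:88256867-88257116 (minus strand), these are the motif TTCNNNGAA bound by STAT factors at −168 and the CRE at −123.
Vgf: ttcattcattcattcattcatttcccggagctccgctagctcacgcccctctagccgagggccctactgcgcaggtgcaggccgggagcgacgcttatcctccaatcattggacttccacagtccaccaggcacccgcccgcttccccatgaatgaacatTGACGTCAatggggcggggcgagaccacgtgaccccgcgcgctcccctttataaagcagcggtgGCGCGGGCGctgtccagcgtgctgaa
Scg2: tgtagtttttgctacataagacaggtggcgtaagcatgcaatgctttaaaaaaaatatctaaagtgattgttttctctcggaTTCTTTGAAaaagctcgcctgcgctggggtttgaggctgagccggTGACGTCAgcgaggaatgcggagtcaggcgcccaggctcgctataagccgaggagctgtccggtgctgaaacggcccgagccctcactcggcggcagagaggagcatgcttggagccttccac

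Motifs were searched on both strands in 300 bases, 250 before and 50 after the start. The CRE occurred in 1.91% of 27457 rat promoters, the AP-1 motif TGANTCA in 7.33%, the CArG box bound by serum response factor in 1.64%, the Egr motif in 5.29% and the STAT motif in 8.68%. RefSeq promoters matched 11 of the 18 genes higher after the secretome at the FDR, of which 2 held a CRE, 2 an AP-1 motif, 1 a CArG box, 2 an Egr motif and 2 a STAT motif. A match is a description of the letters and was not tested as a binding site.

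Other members of the list differed with the same sign without passing the FDR. Arc, a postsynaptic protein of recently active neurons, was at 3.77, 8.33 and 7.27 TPM after the secretome and 0.902, 1.82 and 1.5 TPM after EV (log2 difference −1.61, limma adjusted p = 0.216). The neuronal pentraxin Nptx2 was at 30.5, 37.4 and 32.3 against 12.5, 18.5 and 14.6 TPM (log2 difference −1.11, limma adjusted p = 0.0797). Bdnf, the brain-derived neurotrophic factor, was at 10.8, 7.74 and 7.46 against 4.01, 3.30 and 4.76 TPM (log2 difference −0.95, limma adjusted p = 0.27). In each of these 3 genes the secretome libraries lay above all EV libraries. Homer1, a scaffold of metabotropic glutamate receptors, the tachykinin precursor Tac1, the GPI-anchored neuritin Nrn1, Gadd45b, the prohormone convertase Pcsk1 and the G-protein regulator Rgs2 met the nominal criterion with log2 differences from −1.32 to −0.63. Crh, which encodes corticotropin-releasing hormone, went the other way, at 2.95, 2.25 and 3.22 TPM after EV and 1.62, 1.08 and 1.39 TPM after the secretome (log2 difference 0.68, unadjusted p = 0.0202 in limma, adjusted p = 0.539). Npas4, a factor induced by calcium entry, was below the level for testing. With each library left out in turn, 10 to 12 members met the nominal criterion on the secretome side, while Crh no longer met it without EV replicate 3 or secretome replicate 2, nor with array weights.

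Immediate early transcription factors lay mostly on the secretome side. Of 19 tested members (of 20 listed), 8 were higher after the secretome by the nominal criterion (42.1% against 2.56% of all genes), and Junb was higher after EV, with a list median of −0.55. Fosb, an AP-1 subunit, was at 5.61, 8.61 and 8.32 TPM after the secretome and at 0.151, 0.0940 and 0.343 TPM after EV, near the 0, 0.0669 and 0.159 TPM of IC. Its log2 difference was −2.82 (standard error 0.26, limma adjusted p = 0.0085), and it entered the test through the secretome libraries alone, as the EV libraries were all under 1 TPM. Egr2, a zinc finger factor also known as Krox20, was at 9.69, 16.5 and 16.3 TPM after the secretome, 0.456, 1.99 and 1.55 TPM after EV and 0.332, 0.269 and 0.480 TPM in IC. All secretome libraries lay above all EV libraries (log2 difference −2.75, standard error 0.35, limma adjusted p = 0.0334). The call was lost with a pseudocount of 0.1 (limma adjusted p = 0.0866), with no filter on low values (0.092) and for a mean of at least 5 TPM (0.0657), and the adjusted p lay between 0.0015 and 0.252 over the alternatives. The AP-1 subunit Fosl2 was at 6.17, 5.75 and 5.95 TPM after the secretome and 1.22, 0.501 and 0 TPM after EV, with a limma adjusted p of 0.0566, just outside the FDR.

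The Egr2 promoter, chr20:21054442-21054691 (minus strand) on GRCr8, from RefSeq, is shown because it was the only one of the 11 matched promoters with a CArG box, in capitals, at −83.
Egr2: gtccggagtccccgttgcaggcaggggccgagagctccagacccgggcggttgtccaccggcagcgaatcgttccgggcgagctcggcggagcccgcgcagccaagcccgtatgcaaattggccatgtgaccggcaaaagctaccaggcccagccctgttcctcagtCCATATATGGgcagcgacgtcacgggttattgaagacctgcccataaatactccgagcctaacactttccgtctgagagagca

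Egr1, Egr3, Nr4a1, Maff and Fosl1 also met the nominal criterion on the secretome side, with log2 differences from −1.11 for Egr1 to −0.86 for Egr3 and limma adjusted p of 0.318 or more. Fosl1 was at 5.59, 13.7 and 16.2 TPM after the secretome, 4.36, 5.42 and 5.55 TPM after EV and 0, 0.138 and 0 TPM in IC, so that both treatments lay above IC while secretome replicate 1 came close to the EV libraries. Other members of the same families did not share this difference. Fos was at 15.5, 22.5 and 21.6 TPM after the secretome and 21.8, 19.4 and 15.3 TPM after EV, a log2 difference of −0.08 (95% confidence interval −0.61 to 0.44), against 4.46, 4.05 and 2.24 TPM in IC. The groups overlapped for Fos, and the interval leaves room for a difference of either sign. Junb was at 15.4, 13.1 and 14.2 TPM after EV, 6.80, 9.92 and 9.87 TPM after the secretome and 5.34, 4.72 and 4.85 TPM in IC, with all EV libraries above all secretome libraries (log2 difference 0.63, limma unadjusted p = 0.0225, adjusted p = 0.548). Jun and the stress factor Atf3 had log2 differences of −0.27 (−0.78 to 0.25) and 0.41 (−0.09 to 0.91). With single libraries left out, 5 to 9 members met the nominal criterion on the secretome side (5 without EV replicate 2 or secretome replicate 3), and 4 where a mean of at least 5 TPM was required. Junb no longer met it without EV replicate 1, EV replicate 3 or secretome replicate 1, nor with array weights.

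Feedback regulators of ERK signalling were higher after the secretome in 6 of 16 tested members by the nominal criterion (37.5% against 2.56% of all genes) and in none higher after EV, with a median of −0.56. Dusp4, a nuclear dual-specificity phosphatase that acts on ERK, was at 122, 128 and 107 TPM after the secretome and 36.1, 55.8 and 49.4 TPM after EV, and at 25.7, 26.2 and 29.7 TPM in IC. The log2 difference was −1.35 (standard error 0.16, limma adjusted p = 0.0275, 0.055 with no filter on low values), with the EV libraries above IC and below the secretome. Dusp14, another member of this phosphatase family, was at 21.4, 19.4 and 19.3 TPM after the secretome, 6.13, 7.79 and 7.88 TPM after EV and 4.32, 3.86 and 4.32 TPM in IC. Its log2 difference was −1.37 (standard error 0.16, limma adjusted p = 0.0275), a call lost with the replicate block (limma adjusted p = 0.0569, 0.000642 to 0.25 over the alternatives). The ERK-selective phosphatase Dusp6 was at 29.4, 36.0 and 34.9 against 15.6, 20.2 and 20.3 TPM (log2 difference −0.83, limma adjusted p = 0.239). Dusp5, Spry2 and Spry4 completed the 6, at −1.14, −0.64 and −0.75. Dusp1, a phosphatase with a wider range of kinases as substrates, was at 8.96, 7.54 and 8.05 TPM after EV and 5.27, 6.67 and 6.60 TPM after the secretome, a log2 difference of 0.34 (−0.12 to 0.81). The count lay between 5 and 8 with single libraries left out and was 8 with the block.

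**Figure D2:**
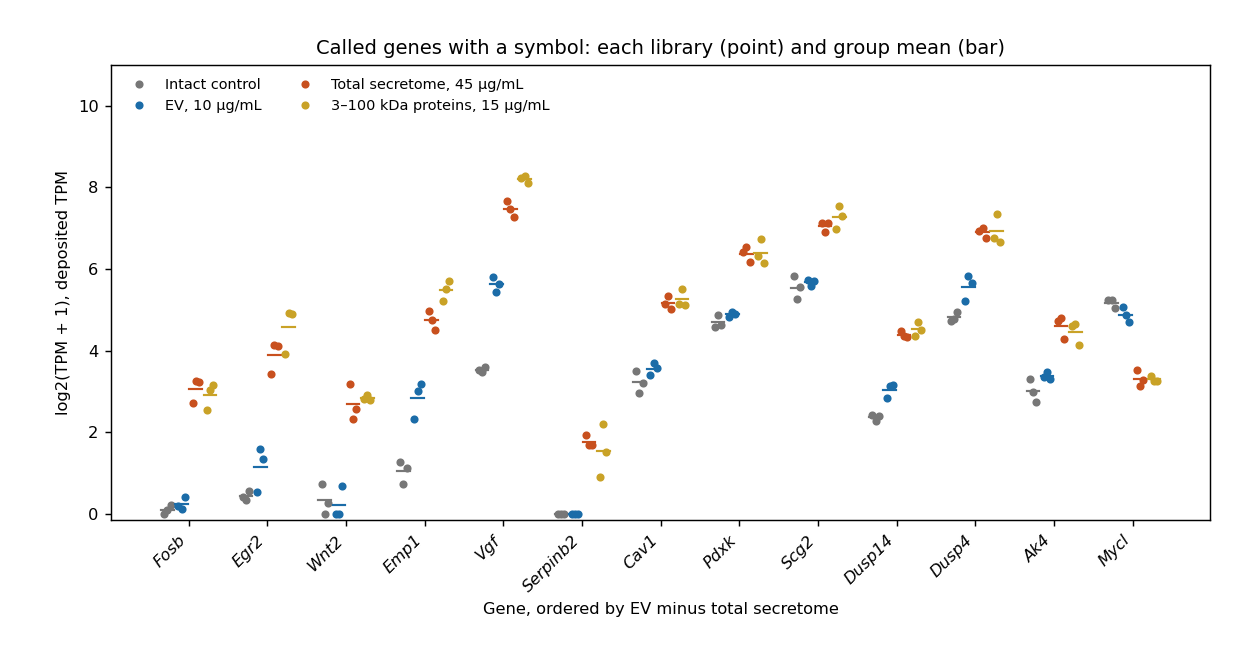
Each point is a library of IC (grey), EV (blue), total secretome (orange) or 3–100 kDa proteins (yellow), with log2(deposited TPM + 1) on the vertical axis, and bars are the means of 3 libraries for 13 genes with a symbol that passed the FDR, ordered from left to right by EV minus secretome. For Vgf the IC libraries lie lowest, the EV libraries between and the secretome libraries above both, while for Scg2, Pdxk and Cav1 the EV libraries lie beside those of IC, and for Mycl the EV libraries lie near IC and above the secretome.

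Cav1 and Emp1, which encode membrane proteins, were also called on the secretome side. Cav1, the coat protein of caveolae, was at 34.5, 39.4 and 31.3 TPM after the secretome, 9.64, 12 and 10.9 TPM after EV and 10.4, 6.81 and 8.31 TPM in IC. All secretome libraries lay above those of EV and IC, with a log2 difference of −1.62 (standard error 0.15, limma adjusted p = 0.0085). Emp1, an epithelial membrane protein with several membrane spans, was at 30.5, 26.0 and 21.8 TPM after the secretome, 4.01, 7.0 and 8.14 TPM after EV and 1.43, 0.664 and 1.18 TPM in IC, levels that did not overlap. Its log2 difference of −1.92 (standard error 0.24, limma adjusted p = 0.0334) did not pass with the replicate block (limma adjusted p = 0.0714, 0.000419 to 0.252 over the alternatives). The Emp1 promoter, chr4:169943980-169944229 (plus strand) on GRCr8, from RefSeq, is shown as the only one of the 11 with 2 AP-1 motifs. Its capitals mark TGANTCA and TTCNNNGAA, and the last run of capitals holds an AP-1 and a STAT match that overlap.
Emp1: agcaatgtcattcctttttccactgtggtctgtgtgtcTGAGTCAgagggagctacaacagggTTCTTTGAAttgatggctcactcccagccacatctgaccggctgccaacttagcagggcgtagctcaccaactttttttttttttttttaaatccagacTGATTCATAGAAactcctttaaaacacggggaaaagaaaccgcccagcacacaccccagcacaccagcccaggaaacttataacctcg

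Among 21 tested annexin, S100, caveolin and galectin genes, 7 were higher after the secretome by the nominal criterion (33.3% against 2.56% of all genes) and none after EV, with a median of −0.36. Beside Cav1 these were S100a10 (mean 226 against 119 TPM, log2 difference −0.94) and its binding partner Anxa2 (17.7 against 10.3 TPM, log2 difference −0.75), Anxa11, Cav2 and the galectins Lgals1 and Lgals3. None but Cav1 passed the FDR, and 4 met the nominal criterion without secretome replicate 2. Of 17 tested genes listed under plasminogen activation and matrix proteolysis, 6 met the nominal criterion on the secretome side (35.3% against 2.56% of all genes), with a median of −0.52. Serpinb2, an inhibitor of plasminogen activators, was listed at 2.79, 2.23 and 2.22 TPM after the secretome and at 0 in every EV and IC library (limma adjusted p = 0.0334, 0.086 with the replicate block, 0.00245 to 0.157 over the alternatives), and it entered the test through the secretome alone. The urokinase gene Plau was at 5.04, 10.7 and 20.5 TPM after the secretome and 3.14, 4.24 and 5.0 TPM after EV, with secretome replicate 1 close to the EV libraries (−1.2, limma adjusted p = 0.594), and its receptor Plaur at 2.60, 2.18 and 2.81 against 0.574, 1.05 and 2.01 TPM (−0.73, adjusted p = 0.603). Adamts1, the hyaluronan receptor Cd44 and the galectin Lgals3 were the other members, and Lgals3 is counted in both lists. Cd44 and Lgals3 are neither proteases nor protease inhibitors. The count of 6 depended on single libraries, falling to 1 without secretome replicate 2 or 3 and to 2 without EV replicate 1. It was 3 where a mean of at least 5 TPM was required.

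Of 19 tested integrin and focal adhesion genes, 5 met the nominal criterion on the secretome side (26.3% against 2.56% of all genes, median −0.32). The actin crosslinker Actn1 was at 59.1, 70.6 and 64.3 TPM after the secretome, 30.4, 34.5 and 32.0 TPM after EV and 30.2, 24.6 and 24.9 TPM in IC (log2 difference −0.99, limma adjusted p = 0.051), without overlap between EV and secretome and just outside the FDR. Zyx, Vcl, Itga6 and Itga5, of focal adhesions and laminin and fibronectin receptors, had log2 differences from −0.96 to −0.63. Of 19 tested actin and serum response factor genes, 3 met the nominal criterion on the secretome side (15.8% against 2.56% of all genes), Tpm4, Vim and Cyr61, and 1, the YAP target Amotl2, on the EV side (23.8 against 14.7 TPM), where 1.43% of all genes did. Without secretome replicate 2 the actin count fell to 1, and without secretome replicate 1 it rose to 5.

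Other genes at the FDR had varied roles. Pdxk, the kinase that makes pyridoxal phosphate from vitamin B6, was at 84.8, 92.0 and 71.3 TPM after the secretome, 27.4, 29.9 and 28.9 TPM after EV and 22.9, 28.6 and 23.9 TPM in IC. The EV range lay near that of IC and far below the secretome (−1.5, standard error 0.12, limma adjusted p = 0.00554). Ak4, a mitochondrial adenylate kinase, was at 25.6, 26.9 and 18.6 against 9.25, 10.1 and 8.82 TPM (log2 difference −1.25, limma adjusted p = 0.0367). The signalling ligand Wnt2 was at 8.01, 4.02 and 4.91 TPM after the secretome and 0, 0 and 0.612 TPM after EV (limma adjusted p = 0.0334), and entered the test through the secretome alone. With the replicate block the limma adjusted p was 0.0687 for Ak4 (0.00215 to 0.348 over the alternatives) and 0.0603 for Wnt2 (0.0017 to 0.184).

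Small RNA and unnamed loci made up 10 of the 24 genes when Vgf is left aside, and the lowest limma p of the comparison was that of LOC100125368 (adjusted p = 0.00185, 8.63e-05 to 0.176 over the alternatives). Small nucleolar RNAs, which guide modification of other RNAs, were listed at 0 in every EV library in 3 cases, namely SNORA79 (6.89, 13.1 and 26.4 TPM after the secretome), SNORA36 (8.39, 16.0 and 10.6 TPM) and SNORA81 (8.53, 8.06 and 5.41 TPM), and so was LOC100125368 (14.7, 11.7 and 10.0 TPM). SNORD82 was listed at 46.7, 85.7 and 23.1 TPM after EV and at 0 in every secretome and IC library. LOC100909526, AABR07014114.1, LOC100360137 and AABR07019253.1 were also at 0 in every secretome library, with 2.83 to 10.6 TPM after EV. In IC, SNORA36, LOC100125368, LOC100909526, AABR07014114.1 and LOC100360137 were each at 0 in some libraries and above 0 in others. AABR07052897.3 was at 34.9, 22.2 and 27.2 TPM after the secretome, 4.08, 1.68 and 2.74 TPM after EV and 1.95, 1.19 and 3.76 TPM in IC. With all 12 libraries in one fit, SNORA36, LOC100125368, LOC100909526, AABR07014114.1, LOC100360137 and AABR07019253.1 did not pass (limma adjusted p from 0.106 to 0.291). SNORA79 did not pass with no filter on low values (limma adjusted p = 0.0751) or for a mean of at least 5 TPM (0.0657). Its limma adjusted p lay between 0.00176 and 0.157 over the alternatives. AABR07019253.1 was lost with the replicate block (limma adjusted p = 0.0613, 0.00189 to 0.259 over the alternatives). The library protocols select poly(A) or mRNA, and 9 of these 10 loci passed through 1 group alone.

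Genes higher after EV were fewer. Mycl, a transcription factor of the Myc family, was the only gene with a symbol that passed the FDR on this side. It was at 32.6, 28.3 and 24.9 TPM after EV, 10.4, 7.80 and 8.72 TPM after the secretome and 36.6, 37.0 and 31.9 TPM in IC, with all EV libraries above all secretome libraries (log2 difference 1.56, standard error 0.17, limma adjusted p = 0.0228). Against IC, whose libraries both fits share, Mycl differed by −1.84 after the secretome (limma adjusted p = 0.00291) and by −0.30 after EV (adjusted p = 1). Dact1, a modulator of Wnt signalling, was at 32.7, 33.7 and 32.9 TPM after EV, 17.3, 15.4 and 16.5 TPM after the secretome and 37.5, 29.0 and 32.3 TPM in IC (log2 difference 0.96, limma adjusted p = 0.051), just outside the FDR. The neuronal transcription factor Bhlhe22 was at 69.0, 87.1 and 94.8 against 38.5, 28.5 and 41.1 TPM (log2 difference 1.18, limma adjusted p = 0.096), and Klf7, a Krüppel-like factor, at 38.4, 55.2 and 59.4 against 27.2, 17.8 and 22.4 TPM (1.13, adjusted p = 0.156). For each of these 4 genes at least 1 IC library lay above the lowest EV library. Klf11, the sulfotransferase Chst15, Wscd2, Tmem200c and Rph3a, a Rab3 effector at synaptic vesicles, met the nominal criterion with log2 differences from 0.61 to 1.19 and limma adjusted p of 0.156 to 0.204. Over the 182 genes higher after EV by the nominal criterion, which were chosen for low secretome against EV values, the secretome mean was below the IC mean in 173 (7072 of all 12754 genes) and the EV mean above the IC mean in 102 (6568 of all).

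Id3, an inhibitor of helix-loop-helix factors and target of BMP signalling, was at 11.7, 11 and 9.02 TPM after EV, 5.11, 5.02 and 3.40 TPM after the secretome and 5.73, 9.30 and 2.62 TPM in IC (log2 difference 1.07, limma adjusted p = 0.156). The EV libraries lay above all secretome libraries, while the IC libraries ranged from under the lowest secretome library to over the lowest EV library. It was the only one of 16 tested BMP, Notch and TGF-beta targets past the nominal criterion, 1 member of 16 beside 1.43% of all genes. Ddit4, a stress-induced inhibitor of mTORC1, was at 47.4, 41.2 and 33.6 TPM after EV, 31.2, 20.4 and 22.9 TPM after the secretome and 70.1, 69.2 and 46.2 TPM in IC (log2 difference 0.69, limma adjusted p = 0.379).

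Genes of gp130 and STAT3 signalling had members on both sides. Of 15 tested members (of 21 listed), 2 were nominally higher after the secretome (13.3% against 2.56% of all genes) and 2 nominally higher after EV (against 1.43%), and none passed the FDR, with a median of −0.10. Stat3 was at 67.1, 83.9 and 76.9 TPM after EV, 67.1, 81.0 and 75.3 TPM after the secretome and 28.9, 29.1 and 25.7 TPM in IC. The difference between the preparations was 0.01 (95% confidence interval −0.32 to 0.35), while both lay above every IC library. The oncostatin M receptor Osmr was at 3.08, 13.1 and 12.9 TPM after EV and 9.15, 10.7 and 10.1 TPM after the secretome, −0.26 (−1.30 to 0.79), an interval wide because EV replicate 1 lay far below the other EV libraries. Socs3, the feedback inhibitor that STAT3 induces, was at 6.72, 5.40 and 6.11 TPM after EV and 3.42, 4.46 and 4.52 TPM after the secretome, 0.45 (−0.05 to 0.96), with all EV libraries above. Cebpd, a STAT3 target, and Socs1 were nominally higher after EV, at 0.71 (limma adjusted p = 0.587) and 0.94 (adjusted p = 0.581). The gp130 ligand Clcf1 was nominally higher after the secretome, at 2.06, 2.13 and 1.91 against 0.557, 0.555 and 0.568 TPM (log2 difference −0.96, limma adjusted p = 0.261), and entered the test through the secretome alone, as its EV libraries were all under 1 TPM. Il11 was the other member on that side. With single libraries left out, 0 to 2 members met the criterion on each side.

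Gfap, the intermediate filament of reactive astrocytes, was at 491, 617 and 362 TPM after EV and 271, 636 and 408 TPM after the secretome, 0.20 (−0.56 to 0.96), against 85.0, 361 and 128 TPM in IC. The groups overlapped widely, and the spread within each exceeded the difference. The protease inhibitor Timp1 differed by −0.42 (−1.01 to 0.18) and the TNF receptor Tnfrsf1a by 0.00 (−0.39 to 0.40). Tnfrsf12a, the receptor of TWEAK, was at 49.4, 58.8 and 65.3 TPM after the secretome, 29.4, 36.4 and 22.3 TPM after EV and 0.953, 3.10 and 1.23 TPM in IC, with a log2 difference of −0.99 (limma unadjusted p = 0.00165, adjusted p = 0.24) and no overlap. Interferon response genes had no member of 13 tested past the nominal criterion.

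**Figure D3:**
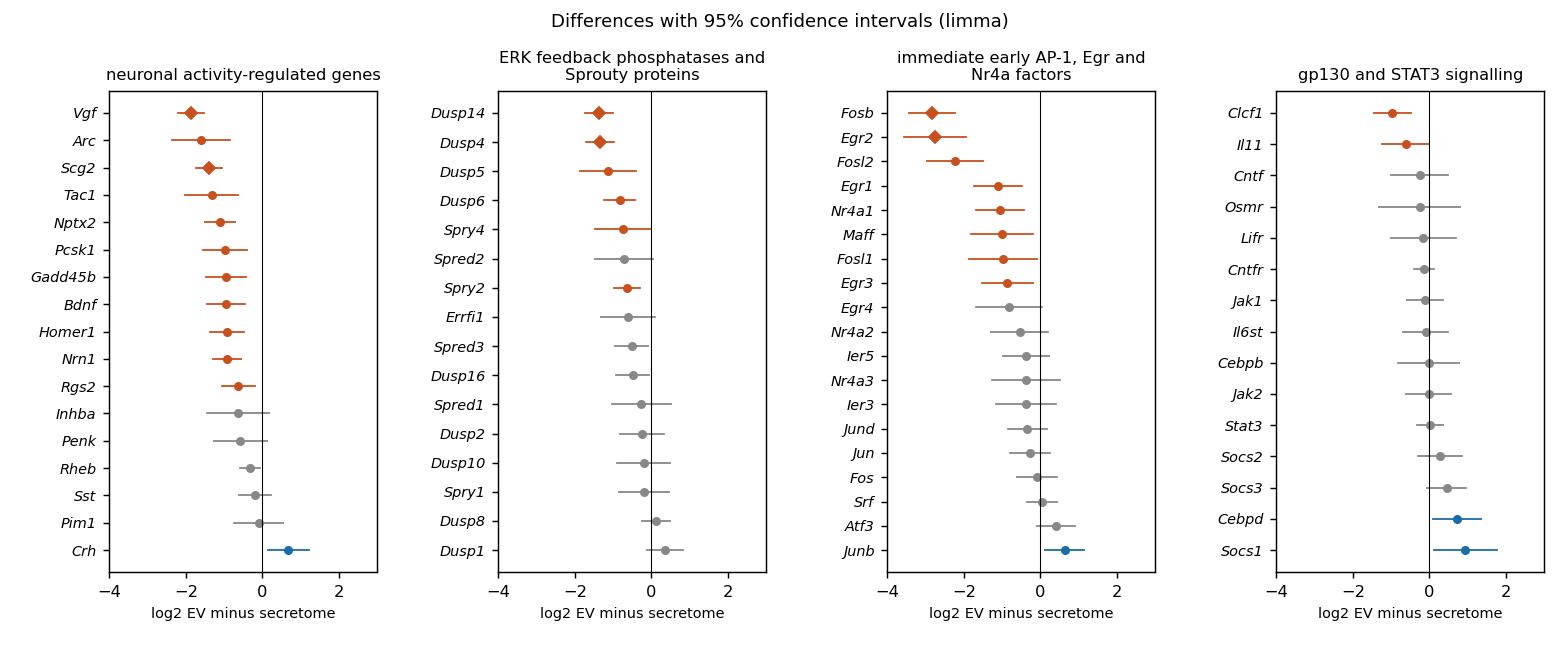
Points are log2 differences EV minus total secretome of every tested member of 4 lists and lines their 95% confidence intervals from limma. Diamonds mark an FDR under 0.05, and colour marks members past an unadjusted p of 0.05 and a fold of 1.5 (orange, secretome higher, and blue, EV higher). In the first 3 lists 11, 6 and 8 members are coloured on the secretome side, while in gp130 and STAT3 signalling 2 members are coloured on each side and Stat3 sits at 0.01.

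Synaptic genes had small differences of mostly one sign. Of 22 tested genes of synaptic vesicles and release, 20 were above 0 (higher after EV), as were 6449 of all 12754 genes, with a median of 0.22 and none past the nominal criterion. The vesicle phosphoprotein Syn2 (40.5 against 28.1 TPM, 0.48) and the vesicular GABA transporter Slc32a1 (56.0 against 41.8 TPM, 0.40) had unadjusted limma p of 0.0278 and 0.0343 (adjusted p = 0.578 and 0.591) at folds under 1.5. Glutamate receptors and their scaffold had a median of 0.20 over 24 genes, 19 of them above 0. Homer1 was the only member past the nominal criterion (4.17% against 2.56% of all genes on the secretome side). The ionotropic receptor subunit Gria1 was at 115, 153 and 146 TPM after EV and 119, 102 and 100.1 TPM after the secretome (log2 difference 0.34, limma adjusted p = 0.581). Among 19 channel genes only the potassium channel Kcna1 met the criterion (5.26% against 2.56% of all genes on the secretome side). It was higher after the secretome, at 8.60, 8.29 and 7.69 against 3.15, 3.54 and 4.88 TPM. Neuron markers as a list, summed above, had a median of 0.13, and their part in these medians was not tested.

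None of 28 nuclear-encoded genes of the mitochondrial complexes, 11 mitochondrially encoded genes, 27 ribosomal protein genes and 19 genes of calcium pumps, exchangers and store channels met the nominal criterion, with medians of 0.06, −0.12, −0.03 and 0.03. Of 24 antioxidant genes only Srxn1, which reduces overoxidised peroxiredoxins, met it (4.17% against 2.56% of all genes on the secretome side). Srxn1 was at 8.82, 15.7 and 12.7 TPM after the secretome, 2.07, 6.65 and 5.0 TPM after EV and 1.34, 1.09 and 0.859 TPM in IC (log2 difference −1.34, limma adjusted p = 0.377). The count of this list was 2 without EV replicate 1 or 3 and 3 without secretome replicate 1. Hmox1, haem oxygenase 1, was at 45.1, 77.1 and 70.3 against 40.8, 52.2 and 42.9 TPM (log2 difference −0.48, 95% confidence interval −1.02 to 0.07), with both groups above the 12, 19.9 and 13.8 TPM of IC. In the Bcl2 family, Pmaip1, which encodes the pro-apoptotic Noxa, was at 6.92, 3.61 and 3.95 TPM after the secretome and 1.17, 1.23 and 0.549 TPM after EV (log2 difference −1.54, limma adjusted p = 0.138). No other of the 10 tested members met the criterion (10.0% against 2.56% of all genes on the secretome side). With the replicate block 2 members met it, as did 3.05% of all genes. Chemokines and NF-kB targets had 3 of 14 members on the secretome side by the nominal criterion, 21.4% against 2.56% of all genes (Ptgs2, Tnfaip3 and Relb, all under 3 TPM after the secretome on average), and 1 without EV replicate 2. The chemokine Ccl2 was at 9.61, 68.9 and 39.4 TPM after the secretome, 4.20, 46.3 and 18.7 TPM after EV and 0.378, 0 and 0 TPM in IC, a spread within each treatment that exceeded their difference (log2 difference −0.89, −2.99 to 1.2).

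**Figure D4:**
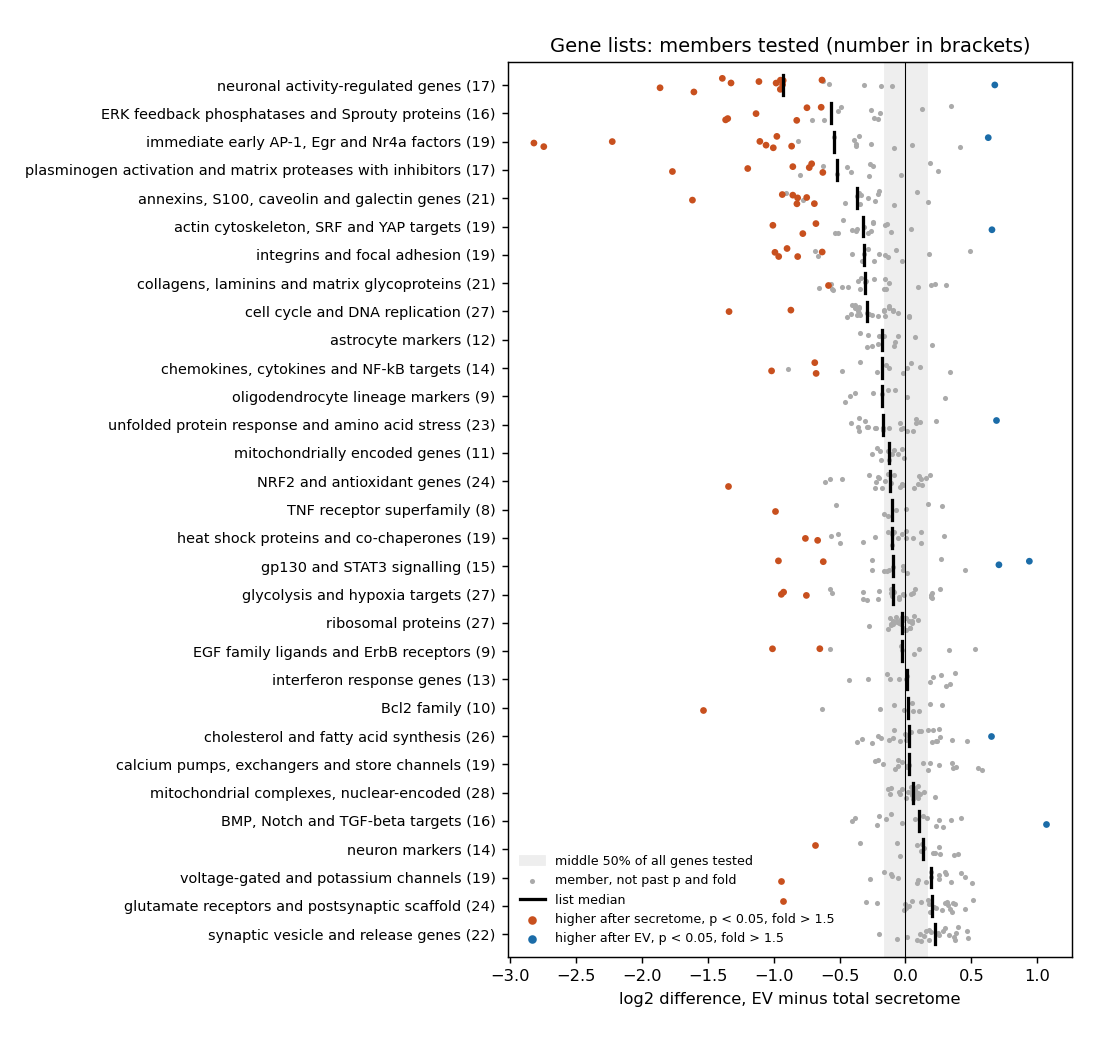
Each row is a list with its number of tested genes in brackets, each point a member at its log2 difference EV minus total secretome, the bar the list median, and the grey band the middle 50% of all genes tested. The lists are ordered by median from −0.93 for neuronal activity-regulated genes at the top to 0.22 for synaptic vesicle genes at the bottom, and orange points (secretome higher past p and fold) gather in the upper rows.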

How the data were processed

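The deposited files give 1 library each. According to their methods, the authors used Trimmomatic and Cutadapt for trimming, Salmon for quantification against rat transcripts from Ensembl, and tximport for the sums per gene. The submitters' processing notes name the build Rnor_6.0. The unit is not named. Each library sums to 1000000 with values that are not whole, so the deposited values were taken as TPM that the authors obtained from these tools. TPM keeps no depth, so count tests could not be used and no counting interval was computed. The library was strand-specific mRNA for DNBSEQ per the labels, but poly(A)-selected for a NextSeq instrument per the methods, and which holds here is unknown.

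Rows of one gene name were summed (28111 names, 497 with several rows), TPM was rescaled by median-of-ratios factors (0.924 to 1.07), and a gene was kept where 3 or more of the 6 libraries reached 1 TPM. Log2(TPM + 1) was fitted with limma 3.58.1 (lmFit, eBayes with trend) under R 4.3.3, and p-values were adjusted by the Benjamini-Hochberg method. EV and secretome were each also fitted against IC. Marker sums were compared by the exact two-sided permutation test, whose smallest p for 3 against 3 is 0.1. The members, gene lists and motifs were chosen with earlier results of these data known, and no p was adjusted over a list alone.

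Same-numbered EV and secretome libraries deviated together from their group means across genes (correlations of 0.26, 0.19 and 0.21), and each library correlated best with its own number. The labels name no shared day or litter. The supplement of the study names a day covariate in a principal component analysis of EV and IC, without assigning libraries to days. The numbers were therefore read as pairs from the data, and a fit with the number as a block was run. Values given without naming an alternative come from the fit without the block, which leaves this pairing out. The genes named were, in each direction, the up to 12 of largest difference at the FDR without overlap and at 5 TPM or more in the higher group, filled to 12 by lowest unadjusted p with the nominal criterion, any locus or small RNA at the FDR, and up to 3 members of lowest p in each list, with members that define a list's role. Vgf was matched to LOC100909521 by its Entrez number, and older symbols such as Cyr61 through synonyms in the GRCr8 gene table. Promoters are from RefSeq, and a genome of the files' build was not used here. Some items are not reported here.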

Additional observations from a re-analysis of the deposited data

Results flagged for a closer look

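Libraries outside the comparison showed a signal in the genes named as higher after the total secretome. In 14 of these 18 genes, all 3 libraries of cultures given 3–100 kDa proteins at 15 µg/mL lay above all IC libraries, as they did in 1360 (10.7%) of the 12754 genes tested between EV and secretome. These 18 genes were chosen for high values after the secretome. The exceptions were SNORA79, LOC100125368, SNORA36 and SNORA81. Vgf was at 300.2, 311 and 276 TPM after the proteins, Fosb at 4.89, 7.25 and 7.88 TPM, Cav1 at 34.5, 44.2 and 33.8 TPM and Serpinb2 at 0.885, 3.58 and 1.86 TPM. No comparison of the protein libraries with another group was tested, though they entered the fit of all 12 libraries.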

How the results depend on the processing

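At an FDR of 0.05 limma called 24 genes. The count was 14 for a mean of at least 5 TPM (2 higher after EV), 58 with all 12 libraries in one fit and 984 with array weights, whose estimation stopped before convergence. Leaving out each library in turn gave 0 to 55, and a gene that entered the test through 1 group alone could not be tested without a library of that group. The nominal count of 508 became 977 with array weights and lay between 366 and 886 with a library left out. The replicate block (20 at the FDR and 622 nominal, of which 389 were higher after the secretome), another pseudocount, no filter, other scalings, rows kept apart and no trend stayed within 1.5 times both counts. The block changed the call of 7 genes at the FDR, given beside those named, and brought 3 others in. Counts of list members under the alternatives were added after seeing the data, and 72 of 432 moved by more than 1.5 times. The cause was not tested for any of these.

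Of 122 named genes under 16 alternatives, 114 never changed sign. The reversed values, all small, were Mt-nd1 0.0316 and Pdgfra 0.111 with array weights. With single libraries left out, the others ranged across 0: Mt-nd1 from −0.31 to 0.032, Pdgfra from −0.341 to 0.0413, Mt-nd2 from −0.462 to 0.0322 and Ndufb8 from −0.000379 to 0.367 (all reversed without EV replicate 1), Rps4x from −0.44 to 0.0299 and Rpl23 from −0.338 to 0.021 (EV replicate 3), Pdgfrb from −0.0892 to 0.119 (EV replicate 2, and secretome replicate 2 at −0.0298) and Ccdc153 from −0.0418 to 0.397 (secretome replicate 1). Among lists with a median beyond 0.05 in either direction, those of BMP and Notch targets, gp130 and STAT3 signalling, cell cycle, both mitochondrial lists, pericyte and fibroblast markers, channels and the TNF receptor family changed sign under at least 1 alternative, to medians between −0.0933 and 0.162. The depth of the libraries is unknown, the doses differ, and 3 libraries a group limit the precision.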

Other observations

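Cell cycle genes were on the secretome side in 25 of 27 tested members, as were 6305 of all 12754 genes, with a median of −0.29, which became 0.0254 with array weights. The 2 past the nominal criterion (7.41% against 2.56% of all genes) were Cdkn1a and Ccnd1. The cell cycle inhibitor Cdkn1a was at 54.0, 59.5 and 59.1 TPM after the secretome, 17.2, 24.3 and 26.6 TPM after EV and 24.3, 22.8 and 28.9 TPM in IC. Its log2 difference was −1.34 (limma adjusted p = 0.051, 0.0333 with the replicate block, 0.000891 to 0.394 over the alternatives). The G1 cyclin Ccnd1 averaged 131 against 71.4 TPM (log2 difference −0.87). Without secretome replicate 1 the count was 4. In Cdkn1a the EV libraries lay within or below the IC range, and all secretome libraries above it. Of 27 genes of glycolysis and hypoxia, 3 met the nominal criterion on the secretome side (11.1% against 2.56% of all genes), namely Ndrg1 (221 against 115 TPM, log2 difference −0.94), the vasodilator peptide Adm (3.64 against 1.45 TPM, log2 difference −0.93) and hexokinase 2, Hk2 (6.73 against 3.60 TPM, log2 difference −0.75). Heat shock genes had 2 of 19 (10.5% against 2.56% of all genes), Bag3 (22.1 against 13.8 TPM, log2 difference −0.67), a co-chaperone at 2.62 TPM in IC, and Hspa1b. The heat shock count was 4 without EV replicate 1, 1 without secretome replicate 3 and 0 without secretome replicate 2. The EGF receptor ligand Hbegf (49.3 against 22.2 TPM, log2 difference −1.01) and the receptor Erbb3 were the 2 of 9 (22.2% against 2.56% of all genes) in their family. No member of this family met the criterion without EV replicate 1, EV replicate 2 or secretome replicate 3.

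The 326 genes higher after the secretome by the nominal criterion were chosen for high secretome values. In 269 of the 326, all secretome libraries lay above all IC libraries, against 1475 (11.6%) of all 12754 genes. The EV mean was at or above the IC mean in 218 and below it in 108. Over all 12754 genes the EV mean was above the IC mean in 6568. The secretome mean was below the IC mean in 7 of the 326, against 7072 of all 12754.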
